A study of Dreissena polymorpha with 10 samples.

Results

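Female zebra mussels were compared with male zebra mussels over the 2 seasons in which each sex had replicate arrays. The comparison takes 8 of the 10 arrays of the series, chosen by their titles: 4 female arrays, with 2 from June and 2 from September, against 4 male arrays, with 2 from June and 2 from September. The zebra mussel, Dreissena polymorpha, is a freshwater bivalve, and the animals were collected at Riba-Roja (Ebro River). Each array measured total RNA from one sample of part of the body, from animals described as spawning in June and as resorbing the gonad in September, with no treatment named. How many animals went into a sample is not given, and every p-value refers to the spread from array to array. The 2 February arrays, 1 per sex, were left out of every test because their titles and their descriptions name opposite sexes.

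Zebra mussels have separate sexes and shed eggs and sperm into the water. The gonad lies within the visceral mass, grows before spawning and shrinks after it. RNA from part of the body may hold gonad together with digestive gland, muscle, gill or other tissue. Ovaries hold yolk-bearing oocytes, and testes hold meiotic cells and sperm. In such bulk RNA, fewer cells of a type and less RNA per cell cannot be told apart.

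The transcripts on the array are known by sequence accession, with 1 exception. That exception is a set of 6 probes named RXR, the retinoid X receptor, a nuclear receptor that pairs with other receptors and is bound in gastropod molluscs by organotin compounds that masculinise females. In the RefSeq gene table of the UMN_Dpol_1.0 assembly, 0 of the other accessions were found, so lists of ovary, testis, meiosis, digestive gland, muscle, foot, haemocyte, stress and nuclear receptor genes could not be looked up, and neither tissue nor sex could be checked against its defining markers. Levels below are relative log2 signals: the log2 of the background-corrected spot signal minus the 75th percentile of the same array, taken over the 2772 probes well above background on all 8 arrays. A difference of 1 is a doubling, and levels of different probes are not compared.

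Mean signal was 766.3 on September female replicate 2 and lay between 8138 and 10999 on the other 7 arrays. That array had 3088 probes well above background, against 3969 to 5017 on the others. Slide 1 held 6 of the 8 arrays, and September male replicate 2 and September female replicate 2 were alone on slides 2 and 3 with another scan date. On slide 1 the June females lay in column 2 and the June males in column 3, so sex and column cannot be told apart in June. Of 13654 probes, the 5067 that were above background on at least 2 of the 8 arrays were tested (37.1%), for 2173 of 3541 accessions.

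The 2 September male arrays lay far apart for many of the transcripts that were higher in June females, and the one with high levels was singled out. On the library labelled September male replicate 1, 24 of the 33 probes that were at least 3 log2 units higher in June females (72.7%) were at least 3 log2 units above September male replicate 2, against 7.56% of all tested probes. The 33 probes belong to 14 accessions, with up to 5 probes for 1 accession, so they are no independent transcripts. On that library 23 of the 33 lay within 1 log2 unit of September female replicate 1, no higher a share than the 4041 of all 5067 tested probes that did. Of the 7 probes at least 3 log2 units lower in June females, 6 were higher on that library than on September female replicate 1, against 2785 of all 5067 tested probes. That library was at least 3 log2 units above September male replicate 2 for 4 of the 7 (57.1%, against 7.56% of all tested probes). The 7 probes belong to 5 accessions, and 3 of the 7 are of AM230149. Both groups of probes were picked by their June values, and the September values were not used to pick them. September male replicate 2, the array it is set against, was alone on slide 2. Which of these 2 arrays, if either, departs from its label was not tested. Whether the library labelled September male replicate 1 holds female RNA was not tested either. The main counts of calls, some summaries over probes and the named accessions are given with and without it.

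The first question was which transcripts differ between females and males over both seasons. No transcript was called. With season as a term, 0 of 5067 probes (0%) had an adjusted p under 0.05 by limma with Benjamini-Hochberg adjustment. The smallest adjusted p was 0.989, and 210 probes (4.14%) had an unadjusted p under 0.05. Without the library labelled September male replicate 1, 2 probes (0.0395%) were called, both of the accession AJ517697 and both higher in females, a transcript among those for which that library was singled out. Means over the probes of each accession gave 0 calls among 2173 accessions, with 81 at an unadjusted p under 0.05.

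The estimates themselves were small for most probes. The median of the log2 fold changes was -0.02, the median absolute value 0.27 and the median SE 0.36. Without the library labelled September male replicate 1 the median absolute value was 0.29. The intervals that follow are from all 8 arrays. A 95% confidence interval within 1 log2 unit on either side of 0 was reached by 2083 probes (41.1%), and one within 2 log2 units by 3690 (72.8%). Among the 2772 probes above background on all 8 arrays, those numbers were 1764 (63.6%) and 2544 (91.8%). For these probes a sex difference larger than 2 log2 units over both seasons is thus outside the interval in most cases, and smaller differences are not settled by 4 arrays per sex.

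An absolute log2 fold change above 2 was found for 67 probes of 40 accessions, 43 higher and 24 lower in females. There were 91, 63 higher and 28 lower, without the library labelled September male replicate 1. Of the 67, 29 moved by more than 1.5 times when 1 of the arrays was left out. Of the 67, 2 had all 4 female arrays on one side of all 4 male arrays, against 59 of all 5067 tested probes (1.16%). The sexes were apart on the same side within both seasons for 9 of the 67. Among all tested probes that held for 75 with females above (1.48%) and 137 with females below (2.7%). The 67 were picked by the size of the same difference, so these counts are a description. Of 1400 accessions with at least 2 tested probes, 751 (53.6%) had all their probes on the same side of 0.

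Most of the variance lay elsewhere. Over the tested probes, season took 33.7% of the variance with 1 degree of freedom, sex 9.04% and sex by season 8.91%. Differences between replicate arrays took 48.4% with 4 degrees of freedom, or 12.1% for each. Over the probes above background on all 8 arrays, sex took 8.40% and replicates 8.61% for each degree of freedom, while season took 46.9%. With all 8 arrays, sex took no more of the variance than replicate arrays did for each degree of freedom. Without the library labelled September male replicate 1, with terms entered in the order season, sex, sex by season, sex took 11.99% against 12.5% for each replicate degree of freedom over the tested probes. It took 10.7% against 9.43% over those above background on all 8 arrays, where sex was then the higher of the pair. Across the 5067 probes, in June arrays of the same sex correlated at 0.965 and 0.966, and arrays of opposite sex at 0.953 to 0.974. In September the ranges were 0.930 to 0.941 for the same sex and 0.929 to 0.962 for opposite sexes.

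The second question was whether the sex difference changed between spawning and gonad resorption. The interaction term called 0 of 5067 probes (0%), with 242 at an unadjusted p under 0.05 and a smallest adjusted p of 0.787 by limma. Taken season by season in the same fit of 4 groups, the sexes gave 0 calls in June (257 at an unadjusted p under 0.05, smallest adjusted p 0.514) and 0 in September (198, smallest adjusted p 0.920). Without the library labelled September male replicate 1, 4 probes were called in June, again all of AJ517697 and higher in females, each at an adjusted p of 0.0352. Without September male replicate 2 there were also 4 calls. In September, leaving out female replicate 1 gave 17 calls, 3 higher and 14 lower in females, with the dim array as the lone September female, assumed to vary like the other groups. A fit of the 4 September arrays by themselves called 0, with an unadjusted p under 0.05 for 166 probes.

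A fit of the 4 June arrays alone, chosen after the data were seen, called 7 probes (0.138%), all higher in females, and 363 had an unadjusted p under 0.05. The 7 probes belong to AJ517697 (4 probes) and AJ517707 (3 probes). All 4 June arrays lay on slide 1. With only June arrays in the fit, the spread between the September arrays does not enter the error. In June the replicate number is also the row on the slide, and with that row as a block 0 probes were called (303 at an unadjusted p under 0.05). No probe was called either when any 1 June array was left out or when arrays were quantile normalized, where 286 had an unadjusted p under 0.05, and 284 to 545 did with 1 array left out.

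AJ517697 was the transcript with the most called probes. Its relative log2 signal was 0.48 and 0.11 in June females, against -8.53 and -8.62 in June males. In September it was -2.24 and -3.66 in females, against -0.92 in the library labelled male replicate 1 and -11.6 in male replicate 2. The June females stood far above the June males, while in September the females lay between the male arrays. The June means were 0.29 ± 0.26 in females and -8.58 ± 0.07 in males (SD, n = 2 each), a 469-fold difference. On the June arrays alone the log2 fold change was 8.87 (SE 0.25, adjusted p = 0.0278 by limma), and the 4 probes of this accession gave 8.09 to 8.87. Over both seasons the means were -1.33 ± 1.97 in females and -7.41 ± 4.56 in males (SD, n = 4 each), and females minus males came to 6.09 log2 units (SE 2.34, adjusted p = 0.989). Without the library labelled September male replicate 1 it was 8.78 (SE 0.39, adjusted p = 0.00389). That library was singled out partly for its level of this transcript, so this p is a description and no independent test. The probe was above background on 4 female and 3 male arrays. On slide 1 alone, where that library is the September male array, the log2 fold change over both seasons was 5.47 (adjusted p = 0.805).

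AJ517707 had the same order of arrays in September. Its relative log2 signal was -0.85 and -0.11 in June females, against -10.1 and -10.4 in June males. In September it was -3.93 and -6.78 in females, against -2.24 in the library labelled male replicate 1 and -9.70 in male replicate 2. Both September females were again below that library and above male replicate 2. The June means were -0.48 ± 0.53 in females and -10.2 ± 0.24 in males (SD, n = 2 each), an 866-fold difference in measured signal, with 1 of the 2 June male arrays above background. On the June arrays alone the log2 fold change was 9.76 (SE 0.37, adjusted p = 0.0386 by limma), with 9.15 to 9.76 among its 4 probes. Over both seasons the means were -2.92 ± 3.06 in females and -8.10 ± 3.92 in males (SD, n = 4 each), a difference of 5.19 log2 units (SE 2.35, adjusted p = 0.989). It was 7.59 (SE 1.31, adjusted p = 0.502) without the library labelled September male replicate 1. The tested difference between the seasons did not pass for either accession (-9.15 for AJ517707 and -5.57 for AJ517697, both at an adjusted p of 0.947).

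**Figure D1:**
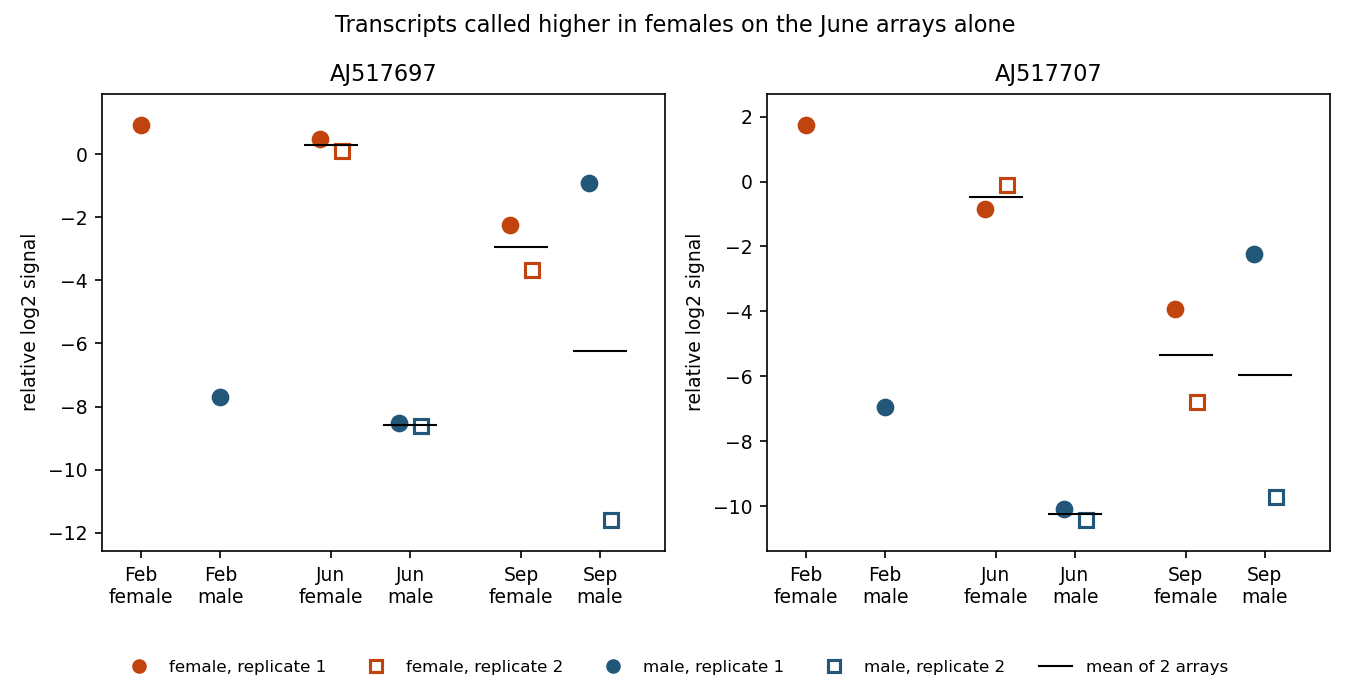
Relative log2 signal (vertical axis, log2 units) of AJ517697 and AJ517707 on each array, by season and sex. Points are arrays, with filled circles for replicate 1 and open squares for replicate 2, lines are means of 2 arrays, and the February sexes are those of the titles. June females lie at 0.48 and 0.11 for AJ517697 and June males at -8.53 and -8.62, while the library labelled September male replicate 1, at -0.92, lies above both September females.

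The February arrays took no part in choosing these accessions. On the array titled female, AJ517697 had 0.93 and AJ517707 had 1.74. On the array titled male they had -7.71 and -6.94. Both transcripts thus stood higher, by 8.64 and 8.68 log2 units, on the array whose title says female, with 1 array per sex and no test.

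A wider group of transcripts had the same pattern in June. Counting probes with a difference of at least 3 log2 units, June arrays of the sexes apart and both arrays of the higher sex above background, 33 probes of 14 accessions (0.651%) were higher in June females and 7 probes of 5 accessions (0.138%) were lower. The group was formed after the values were seen, and its June differences are a description. The 33 probes had June differences from 3.03 to 10.47, with a median of 4.43 against -0.05 over all tested probes. With a threshold of 2 log2 units 70 probes of 35 accessions were higher in June females, and with 4 log2 units 18 probes of 7 accessions.

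In February the higher group kept its side by the titles, and in September it was split within each sex. The February array titled female was above that titled male for 32 of the 33 probes, by a median of 4.79, and by at least 3 log2 units for 26 of them (78.8%, against 1.30% of all tested probes). In September the median difference between the sexes was 0.84, and 0 of the 33 probes had both females above both males. September female replicate 1 was at least 3 log2 units above male replicate 2 for 25 of the 33 (75.8%, against 3.06% of all tested probes). September female replicate 2, the dim array, was that far above male replicate 2 for 9 (27.3%, against 7.68%). The library labelled September male replicate 1 lay above male replicate 2 for 27 of the 33, above female replicate 2 for 28 and above female replicate 1 for 19. Among all 5067 tested probes those counts were 2424, 2403 and 2785, so the last is near the share over all probes. On the dim array 11 of the 33 probes were above background, against 29 on September female replicate 1, 29 on the library labelled male replicate 1 and 24 on male replicate 2. Among all 5067 tested probes the counts in that order were 3025, 4248, 4490 and 4496.

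**Figure D2:**
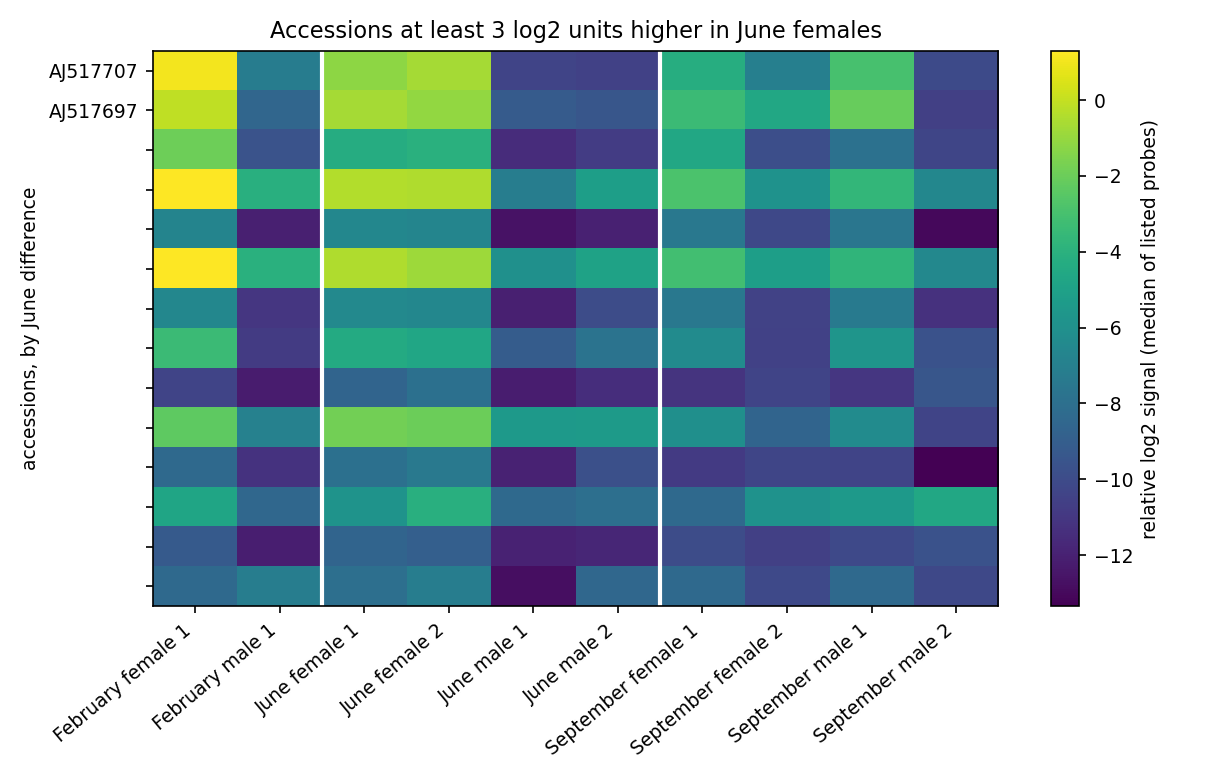
Relative log2 signal (colour, log2 units) of the 14 accessions at least 3 log2 units higher in June females, 1 per row in order of the June difference, with arrays in columns and seasons parted by white lines. Each cell is the median of the accession's listed probes, and AJ517707 and AJ517697 are the top rows. Most rows are bright on the February array titled female, on both June female arrays, on September female 1 and on the library labelled September male 1.

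The 7 probes lower in June females held no such order. The February array titled female was below that titled male for 2 of the 7, and their median September difference was 1.38, with females higher. The accession AM230149, chosen after its values were seen, had the lowest June difference. It had -10.9 and -12.1 in June females, against -7.15 and -3.43 in June males. In September it had -12.3 and -2.09 in females, against -6.51 in the library labelled male replicate 1 and -13.3 in male replicate 2. Both June females were below background, so their mean signal was at least 54.8-fold below the mean of the 2 June males. Those males lay far apart (SD 2.63), and this bound leaves their spread out. On the June arrays alone the log2 fold change was -6.21 (SE 1.51, adjusted p = 0.561 by limma). In September the sexes overlapped, with the dim female array highest. Its 3 probes were all lower in June females, with differences of -4.50 to -6.21, and the log2 fold change over both seasons was -1.74 (SE 3.02, adjusted p = 0.989), or -1.27 without the library labelled September male replicate 1.

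Across probes, the June and September sex differences did not track each other. They share no array. Over all 5067 tested probes, where probes are no independent replicates, they correlated at r = 0.00728, and 2411 probes (47.6%) had the same sign. Over the 2772 probes above background on all 8 arrays, r was -0.10, with the same sign in 45.3%. Leaving out the library labelled September male replicate 1, r was -0.0257 over the tested probes and 0.00509 over those above background on all 8 arrays. June females were both above both June males for 966 probes (19.1%) and below for 910 (18%). In September the counts were 636 (12.6%) and 812 (16%). The sexes were apart the same way in both seasons for 75 probes with females above (1.48%) and 137 with females below (2.7%), and apart in opposite ways for 313 (6.18%).

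**Figure D3:**
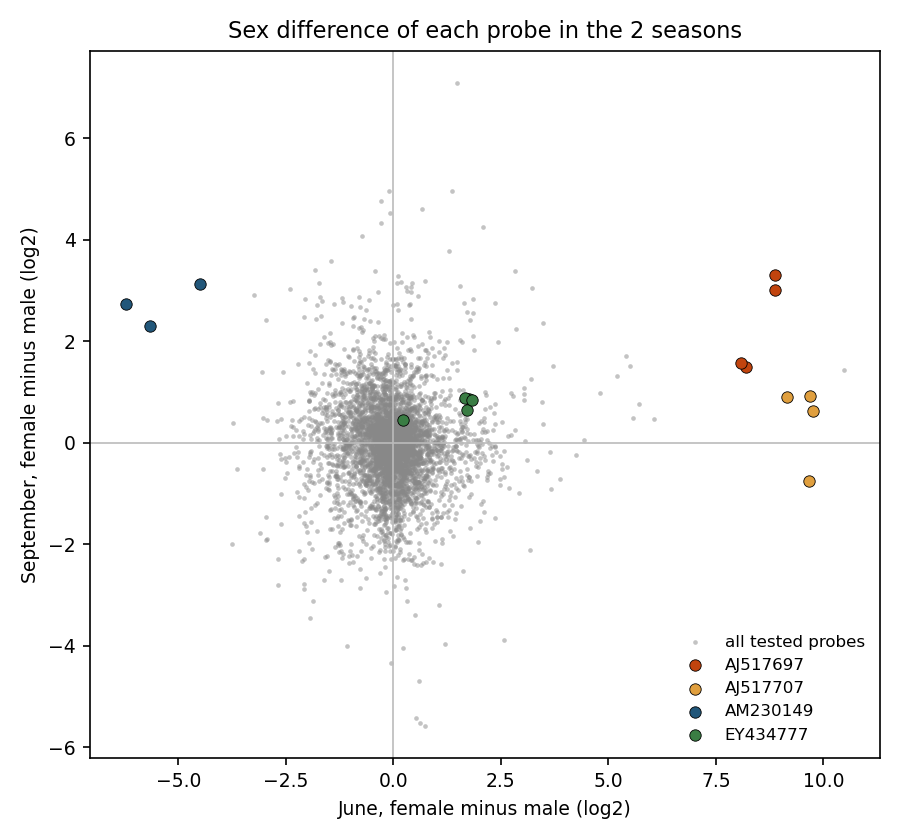
Female minus male difference of each tested probe in June (horizontal axis, log2 units) against September (vertical axis, log2 units). Grey points are the 5067 tested probes and coloured points the probes of 4 named accessions. AJ517697 and AJ517707 lie 8 to 10 log2 units to the right in June and at 1.49 to 3.30 (AJ517697) and -0.77 to 0.93 (AJ517707) in September, and AM230149 lies to the left in June and above 0 in September.

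With each season centred on its own mean, all 4 female arrays lay above all 4 male arrays for 58 probes (1.14%) and below for 93 (1.84%), 151 in all (2.98%). Without centring the numbers were 24 (0.474%) and 35 (0.691%), together 59 (1.16%). The centred counts were 155 above and 157 below without the library labelled September male replicate 1, and having fewer arrays raises them. The February arrays by title were on the same side for 46 of the 58 probes (79.3%, against 54.7% of all tested probes) and for 73 of the 93 (78.5%, against 45.3%). For the probes apart the same way in both seasons, the February arrays by title were on that side for 56 of 75 (74.7%) and for 98 of 137 (71.5%).

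No probe was called over both seasons, so the named accessions are the largest differences among probes above background on all 8 arrays, with the sexes apart the same way in both seasons and all other tested probes of the accession on the same side. Such probes numbered 31 of 23 accessions with females higher and 24 of 20 with females lower. None of the 4 named passed the test, each having an adjusted p of 0.989 by limma.

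EY434777 had the largest difference among those higher in females. Its relative log2 signal was -4.22 and -3.57 in June females, against -5.80 and -5.65 in June males. In September it was -3.69 and -4.19 in females, against -4.43 in the library labelled male replicate 1 and -5.13 in male replicate 2. All 4 female arrays lay above all 4 male arrays. The means were -3.92 ± 0.34 in females and -5.25 ± 0.62 in males (SD, n = 4 each), a log2 fold change of 1.33 (SE 0.32) with a 95% confidence interval of 0.56 to 2.11. Its 5 tested probes ranged from 0.33 to 1.33, and the difference was 1.57 without the library labelled September male replicate 1. In February it had -3.00 on the array titled female and -4.84 on that titled male.

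EY436014 was also higher in females, with less distance between the sexes in June. It had -6.35 and -6.28 in June females, against -6.80 and -6.38 in June males. In September it had -3.83 and -4.51 in females, against -6.46 in the library labelled male replicate 1 and -4.83 in male replicate 2. Females were above males within each season by 0.28 in June and 1.47 in September, and the seasons overlapped between the sexes. The log2 fold change was 0.87 (SE 0.45, 95% confidence interval -0.19 to 1.94), and it was 0.43 without the library labelled September male replicate 1, which moves it by more than 1.5 times.

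EY436953 had the largest difference among those lower in females. It had -7.82 and -6.65 in June females, against -4.65 and -5.68 in June males. In September it had -4.36 and -7.48 in females, against -3.33 in the library labelled male replicate 1 and -2.94 in male replicate 2. Females were below males within each season, and September female replicate 1 lay above both June males. The means were -6.58 ± 1.56 in females and -4.15 ± 1.26 in males (SD, n = 4 each), a log2 fold change of -2.43 (SE 0.71) with a 95% confidence interval of -4.12 to -0.74. Its other probe gave -2.50, and the difference was -2.43 without the library labelled September male replicate 1. In February it had -10.7 on the array titled female and -4.12 on that titled male.

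EY434576 was lower in females as well. It had -6.80 and -5.92 in June females, against -4.52 and -5.80 in June males. In September it had -4.75 and -6.36 in females, against -4.34 in the library labelled male replicate 1 and -3.38 in male replicate 2. Females were below males within each season, though replicate 2 of the sexes lay close together in June. The log2 fold change was -1.45 (SE 0.50, 95% confidence interval -2.65 to -0.24), and its 4 probes ranged from -2.74 to -1.45. It was -1.59 without the library labelled September male replicate 1 and -0.93 on slide 1 alone, a move of more than 1.5 times. In February it had -8.63 on the array titled female and -5.05 on that titled male.

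**Figure D4:**
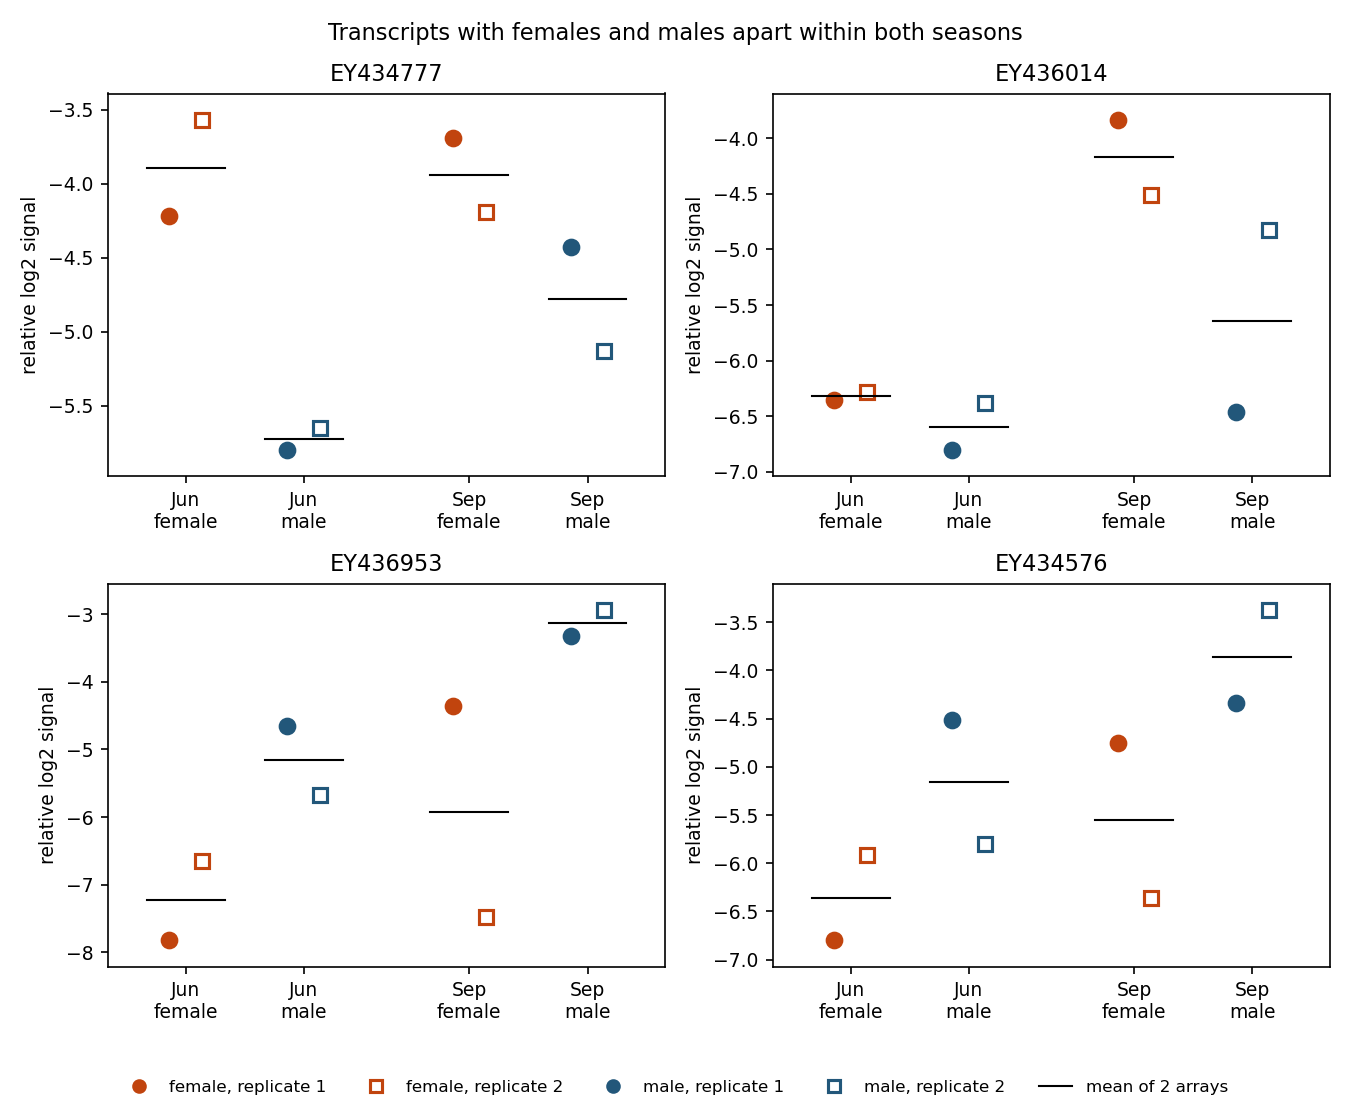
Relative log2 signal (vertical axes, log2 units, scales differ between panels and do not start at 0) of the 4 named accessions by season and sex. Points are arrays and lines are means of 2 arrays. Females lie above males within both seasons for EY434777 and EY436014 and below them for EY436953 and EY434576, and none of the 4 was called.

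Detection gave few transcripts seen in 1 sex only. No probe was above background on all 4 female arrays and on 0 male arrays. The reverse held for 5 of 13654 probes, of EY433961, EY436200, EY436842, EY434846 and EY436967. They were chosen after their values were seen, and none was called (adjusted p = 0.989 by limma). EY436842 had the largest difference of the 5. It had -10.7 and -10.5 in June females and -11.8 and -8.59 in September females, against -7.96 and -7.38 in June males and -7.84 and -8.74 in September males. The dim array, September female replicate 2, was at the level of the September males while not above background. EY436967 had its highest signal of the 8 arrays, -9.39, on the dim array, again not above background. That array is a female one with 3088 probes above background, against 3969 to 5017 on the others. The counts for the 2 sexes are thus not on equal terms. EY436842 was 5.35-fold lower in females in measured signal (log2 fold change -2.42, SE 0.70). Its own signal was used on each female array, so this is an estimate and no bound. EY434846 was at least 2.09-fold lower, and the bounds of the other 3 were 1.104 to 1.77. Without the library labelled September male replicate 1, 11 of 13654 probes were above background on the other 3 male arrays and on 0 female arrays, and 0 probes the other way.

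RXR was dim in both sexes. Of its 6 probes, 2 were tested. Both were above background on 4 of the 8 arrays: September female replicate 1, June male replicate 1, and both September male arrays, the library labelled male replicate 1 included. The first probe had -11.3 and -11.1 in June females and -10.2 and -10.6 in September females, against -10.1 and -11.1 in June males and -10.5 and -10.7 in September males. The arrays of the sexes overlapped within both seasons. Its female minus male difference was -0.19 (SE 0.30, 95% confidence interval -0.90 to 0.52, adjusted p = 0.989 by limma). A two-sided exact permutation test, exchanging sexes within each season over 36 splits, gave p = 0.722, or 0.889 adjusted over the 2 probes. The second probe had -11.4 and -11.0 in June females, against -10.4 and -10.7 in June males. In September it had -10.4 and -9.01 in females, against -10.5 and -9.83 in males. Both June females were thus below both June males, while the September arrays of the sexes overlapped. Its means were -10.4 ± 1.05 in females and -10.4 ± 0.37 in males (SD, n = 4 each). The difference over both seasons was -0.09 (SE 0.41, 95% confidence interval -1.06 to 0.89, adjusted p = 0.992 by limma, exact permutation p = 0.889). The smallest p this exact test allows is 0.0556. The differences were -0.23 and -0.33 without the library labelled September male replicate 1. Signals were near background, and the sign of the first probe changed with the background correction and that of the second with scaling too. The other 4 probes were above background on at most 1 array.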

How the data were processed

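Cy3-labelled RNA (500 ng a sample) was hybridised to 1-colour Agilent arrays, per the labels' protocols. The authors extracted the deposited intensity values with Feature Extraction 10.5.1.1 (Agilent), per the headers of the files, and the processed signal is already background-corrected. The authors' deposited log2 table (15113 rows) correlated with it at 0.988 or higher on each array. Its column medians were 2.74 to 3.02, its scaling and centring are not given in the sources used here, and it served as an alternative.

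Log2 processed signals of 15208 non-control spots were averaged per probe, leaving out outlier-flagged spots where another remained, and 536 control spots were dropped. No spot was saturated. Arrays were scaled by the 75th percentile of detected probes. limma 3.58.1 (R 4.3.3) was fitted with season and sex as additive terms (5 residual degrees of freedom) and with 4 group means, with Benjamini-Hochberg adjustment over 5067 probes and calls at an adjusted p under 0.05. Fits were tested on simulated data. "At least" folds set the brighter group's mean against the array's lowest signal above background, or the probe's own where higher. Normexp used the median spot signal, since no mean signal column was found in these files. Named accessions are at most 2 higher and 2 lower in females. Candidates were called probes, or failing those, probes above background on all 8 arrays with at least 2 same-sided probes in the accession and sexes apart within both seasons, ranked by absolute log2 fold change. Same-numbered replicates had correlated deviations of 0.114 in June and -0.188 in September, so numbers were not taken as pairs. The arrays, the naming rule and the lists were chosen with earlier results of these data known. The number of arrays limits the precision. Figures used matplotlib 3.10.9 (Python 3.11.15).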

Additional observations from a re-analysis of the deposited data

Results flagged for a closer look

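Among 22 groups of 4 values tested, 3 held an array far from the other 3 of its sex. The test flags about 1 in 20 groups by chance where groups are not picked by their values. AJ517707 and AM230149 were picked by their June values, and each group mixes June and September. That rate therefore does not apply here, and the flags are a description. Mean signal was 766.3 on September female replicate 2, far below the other females. AJ517707 had a relative log2 signal of -2.24 on the library labelled September male replicate 1, far above the other males. AM230149 had -2.09 on September female replicate 2, far above the other females.

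The February arrays, outside the tests, held a large difference at the transcripts called on the June arrays. The array titled female minus that titled male was 8.68 for AJ517707 and 8.64 for AJ517697, so that the array titled female was higher, as the females were in June.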

How the results depend on the processing

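Over both seasons, 0 probes were called in 23 of 24 alternatives, with 81 to 332 at an unadjusted p under 0.05, and leaving out 1 array gave 0 to 2 calls, the 2 coming without the library labelled September male replicate 1. The interaction gave 0 calls in 22 alternatives (88 to 827 unadjusted). The fit of 4 groups called 7 probes in June with slide as a block or on slide 1 alone, settings that take the error from the June arrays only. Leaving out 1 array gave 0 to 4 in June (4 without the library labelled September male replicate 1 or without September male replicate 2), and 0 to 17 in September, the 17 (3 higher, 14 lower in females) without September female replicate 1. The June arrays alone, with 7 calls, gave 35 (31 higher, 4 lower) with the percentile over all probes, 13 with normexp, 4 with probes above background on all 8 arrays, 2 with means per accession, 0 with quantile normalization (286 unadjusted), 0 with replicate number as a replicate block (303 unadjusted) and 0 to 0 without 1 array (284 to 545 unadjusted). The replicate block changed no other count of calls. On the June arrays AJ517697 stayed at 8.03 to 9.05 and AJ517707 at 7.99 to 10.1, each called in 5 of 11 alternatives (adjusted p up to 0.424). The count of probes with the sexes apart, 151, was 54 with probes above background on all 8 arrays, 838 on slide 1 alone and 229 to 474 without 1 array; fewer arrays raise it by construction. The median log2 fold change of all probes, -0.02, was 0.35 with normexp and 0.48 with no filter (with no filter other probes enter the median, and the values of single probes are those reported). The 4 named accessions kept their sign in 23 of 23 alternatives, which their choice, with the sexes apart within both seasons, fixes for most of these. The first RXR probe turned positive with normexp (0.774) and without June male replicate 1 (0.0827), and ranged from -0.331 to 0.0827 without 1 array. The second did so with the percentile over all probes (0.0160), quantile normalization (0.105) and normexp (0.632), and without June female replicate 1 (0.113), June male replicate 1 (0.0785) or September female replicate 1 (0.0737), within -0.471 to 0.113 without 1 array. For these changes the cause was not tested. The June-alone fit, the means per accession and the slide row as a block were chosen after seeing the data.

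Signals below background leave bounds or differences in measured signal, and September female replicate 2 had the fewest probes above background.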
